A study of Homo sapiens with 6 samples.

Results

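The genes described here encode laminin chains and parts of the hemidesmosome, and were taken by name as a list of 9 from a table of 78932 genes: LAMA3, LAMB3, LAMA5, LAMC1, COL17A1, ITGA6, ITGB4, PLEC and DST. They were measured by poly(A) RNA sequencing in 6 libraries of HCC1937, an established breast cancer cell line, of which 3 had received 8 nM docetaxel for 24 h and 3 were labelled con, the controls, with no vehicle named. Docetaxel is a taxane that stabilises microtubules. Within a group the 3 libraries are labelled as biological replicates, with nothing on separate cultures, so errors and p-values cover the spread between these libraries. The list was chosen by gene family with the docetaxel-minus-control fold changes of these libraries already known, so the changes of its members, and whether they passed a threshold, are given as a description.

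Laminins are trimers of an α, a β and a γ chain that polymerise or anchor cells in the basement membrane. Laminin-332 contains the products of LAMA3 and LAMB3 and holds basal epithelial cells, those of the mammary gland and skin among them, to the underlying matrix. The hemidesmosome grips it through the integrin made of ITGA6 and ITGB4 and through the transmembrane collagen COL17A1, and inside the cell the plakins PLEC and DST tie these receptors to keratin filaments, chiefly those of KRT5 and KRT14.

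Levels are given as CPM, read counts relative to library size, scaled by TMM. Reads per library totalled between 38622062 and 41675186. A count of 0 allows up to 3 counts, between 0.0720 and 0.0777 CPM by library size without TMM, for counting error only. All 9 genes passed the filter on low counts, ITGB4 with the fewest reads. Of the epithelial markers, KRT8 and KRT18 were abundant, at 2127 ± 34 and 701 ± 19 CPM with docetaxel and 1812 ± 61 and 633 ± 18 CPM in control (SD, n = 3 each), while EPCAM, CDH1 and KRT19 stayed at or below 1.04 CPM in every library. KRT5 and TP63, which mark basal epithelium, had at most 4 reads in any library, and KRT14 at most 12. Of the fibroblast markers COL1A1 was at 143 ± 3 CPM with docetaxel and 137 ± 2 CPM in control, and the other 5 were each at or below 0.41 CPM in every library. The summed level of the endothelial markers ran from 2.81 to 3.60 CPM with docetaxel and from 2.03 to 3.13 CPM in control, and that of the leukocyte markers from 0.735 to 1.22 CPM with docetaxel and from 0.446 to 1.09 CPM in control. SFN, also on the basal list, was at 173.9 ± 3.5 CPM with docetaxel and 144.3 ± 9.8 CPM in control. KRT17 of that list was at 7.22 ± 0.33 CPM with docetaxel and 4.82 ± 0.66 CPM in control. HCC1937 is usually described as a basal-like epithelial line. The low counts of EPCAM, CDH1, KRT19, KRT5, KRT14 and TP63 go against that description, while the levels of KRT8, KRT18 and SFN do not. The aligner and the handling of multi-mapping reads are not known here, so low levels in these cells and reads lost in counting cannot be told apart. Of these lists KRT8, KRT18, KRT17 and SFN passed the test toward higher expression, and their part in the results below was not tested. Once offsets for GC content and length, explained further on, were added, only KRT8 of these 4 was called, and SFN was at a log2 fold change of 0.10 (edgeR adjusted p = 0.17), against 0.27 without them.

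The β subunit of the hemidesmosome's integrin had few reads, to which the same doubt on counting applies. ITGB4 (ENSG00000132470) had 36, 67 and 91 reads with docetaxel and 81, 69 and 65 reads in control. Levels were compared between genes as TPM, reads per base of the deposited gene length scaled to the same sum in each library. The level of ITGB4 was 0.683 ± 0.288 TPM with docetaxel and 0.733 ± 0.111 TPM in control, while its partner ITGA6 was at 11.6 ± 1.0 TPM with docetaxel and 12.7 ± 0.5 TPM in control (SD, n = 3 each). The ratio of ITGB4 to ITGA6 was 6.05% ± 2.91 with docetaxel and 5.74% ± 0.73 in control. ITGB1, with which ITGA6 and ITGA3 form other laminin receptors, was at 33.3 ± 4.7 TPM with docetaxel and 42.5 ± 2.6 TPM in control. On these lengths ITGB4 amounted to 2.13% ± 1.03 of it with docetaxel and 1.73% ± 0.33 in control. The deposited length of ITGB1 is 17512 bases and its longest GENCODE transcript 3784 bases. With the shorter length ITGB1 would be higher and this percentage lower, which was not computed. No exon base of ITGB4 overlaps another gene in GENCODE release 29. With the counts of ITGB4, KRT5 and KRT14 this low, the hemidesmosome is named below only for the usual role of its genes.

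**Figure D1:**
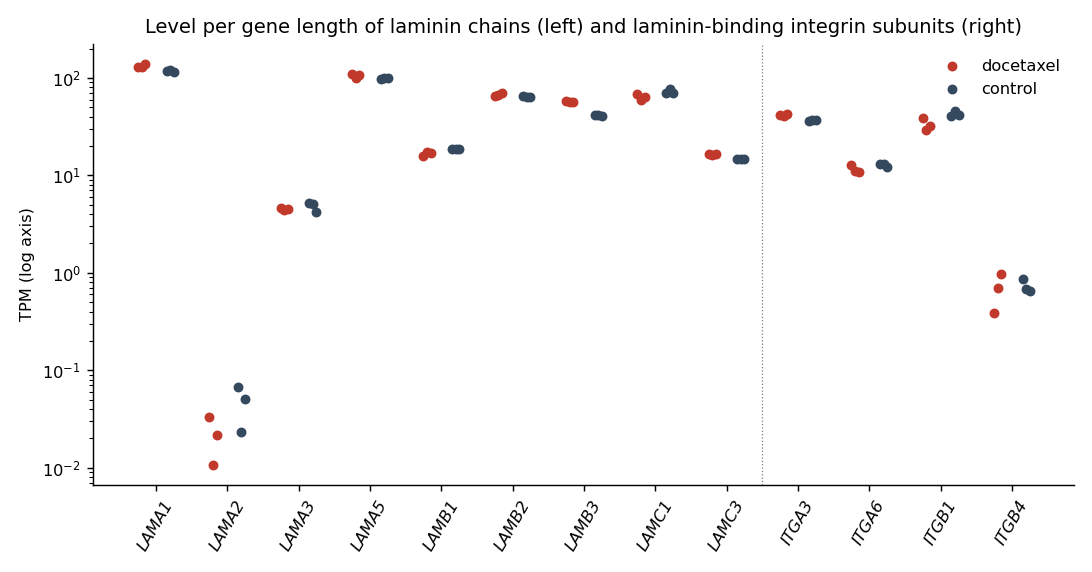
TPM of 9 laminin chains (left of the dotted line) and 4 integrin subunits (right) on a log axis, with 1 point per library, docetaxel in red and control in dark blue. LAMA1 and LAMA5 lie near or above 100 TPM, while LAMA2 and ITGB4 lie below 1 TPM in all 6 libraries.

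Per length, the 9 genes ranged over more than 2 orders of magnitude. PLEC, a giant linker of keratin filaments, was highest at 143.8 ± 9.7 TPM with docetaxel and 129.2 ± 1.3 TPM in control. LAMA5, the α chain of the laminins that contain LAMC1 in many epithelia, followed at 105.1 ± 4.8 TPM with docetaxel and 99.0 ± 1.1 TPM in control. Then came LAMC1, the γ chain of many laminins, at 63.8 ± 4.3 TPM with docetaxel and 71.9 ± 3.7 TPM in control, and LAMB3 at 57.2 ± 0.7 TPM with docetaxel and 41.5 ± 0.4 TPM in control. The ranges of LAMB3 and LAMC1 did not meet within either group. ITGA6 came next, before LAMA3 at 4.51 ± 0.13 TPM with docetaxel and 4.81 ± 0.54 TPM in control. COL17A1 was at 2.86 ± 0.39 TPM with docetaxel and 2.00 ± 0.15 TPM in control, and DST at 2.44 ± 0.17 TPM with docetaxel and 2.72 ± 0.19 TPM in control. These 2 genes changed places between the groups, and with docetaxel their ranges overlapped, the one overlap between neighbours in this order. The deposited length of DST is 48142 bases and its longest GENCODE transcript 22431 bases. With the length of the longest transcript in place of the deposited one, a choice made after the data were seen, DST was above COL17A1 in both groups, with DST at 3.91 and COL17A1 at 2.62 TPM with docetaxel, and DST at 4.36 and COL17A1 at 1.84 TPM in control. ITGB4 was lowest on either length.

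Of the 9 genes, 4 rose with docetaxel, 1 fell and 4 did not pass, by edgeR's quasi-likelihood test at an adjusted p under 0.05 over the 18040 genes tested. Over all tested genes 17.0% were called, 9.14% higher and 7.82% lower. The 3 docetaxel values and the 3 control values did not overlap in 5 of the 9 genes, and in 32.0% of all tested genes. On the log2 scale the 9 had a median change of -0.05, against 0.01 for all tested genes. Since the list was drawn up with this contrast known, nothing is read from these counts. In RNA from a whole culture, fewer cells that express a gene and less of its RNA per cell cannot be told apart.

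LAMB3, the β chain of laminin-332 (ENSG00000196878, GRCh38 chromosome 1, 209614870 to 209652466, minus strand), was the clearest of them. It had 96.4, 97.8 and 96.1 CPM in the docetaxel libraries and 68.4, 67.5 and 68.4 CPM in the control libraries. The lowest docetaxel value, 96.1 CPM, stood well above the highest control value, 68.4 CPM. It rose 1.42-fold, a log2 fold change of 0.51 with a standard error of 0.049 and a 95% interval of 0.41 to 0.61. LAMB3 passed in all 15 alternative fits, with a log2 fold change between 0.36 and 0.52. Of the summed TPM of the β chains LAMB1, LAMB2 and LAMB3, LAMB3 made up 40.4% ± 1.1 with docetaxel and 33.3% ± 0.2 in control (SD, n = 3 each). The deposited length of LAMB1 is 18592 bases and its longest GENCODE transcript 5766 bases, against 4647 and 4305 bases for LAMB3. With the longest transcripts LAMB1 would weigh more and these shares would be lower, which was not computed.

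LAMA3, the α chain that pairs with LAMB3 in laminin-332 (ENSG00000053747, chromosome 18, 23689443 to 23956222, plus strand), did not pass the test. It had 23.9, 23.5 and 23.8 CPM with docetaxel and 26.6, 25.3 and 21.8 CPM in control. The docetaxel values lay inside the control range. The log2 fold change was -0.05 with a 95% interval of -0.22 to 0.12, and its sign turned without control replicate 1, at 0.01. LAMA3 was at 7.88% ± 0.14 of the level of LAMB3 with docetaxel and 11.6% ± 1.2 in control (SD, n = 3 each).

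LAMA5 (ENSG00000130702, chromosome 20, 62307955 to 62367312, minus strand) had 557, 529 and 551 CPM with docetaxel and 494, 496 and 510 CPM in control. The groups did not overlap, but the gap was small, a 1.09-fold rise with a log2 fold change of 0.13 ± 0.04 (SE). With libraries named by group and replicate number, LAMA5 lost its call when control 1 (edgeR adjusted p = 0.090), docetaxel 1 (0.11) or docetaxel 3 (0.10) was left out. LAMC1 (ENSG00000135862, chromosome 1, 183023460 to 183145592, plus strand) had 206, 187 and 193 CPM with docetaxel and 207, 223 and 213 CPM in control. Docetaxel replicate 1 and control replicate 1 were almost equal. LAMC1 fell by 0.13 on the log2 scale, with a 95% interval of -0.22 to -0.04, and lost its call when control 2 (edgeR adjusted p = 0.15), control 3 (0.089), docetaxel 2 (0.13) or docetaxel 3 (0.15) was left out.

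COL17A1, the transmembrane collagen of the hemidesmosome (ENSG00000065618, chromosome 10, 104031286 to 104085957, minus strand), had 261, 253 and 323 reads with docetaxel and 194, 223 and 193 reads in control. These were 6.78, 6.64 and 8.37 CPM with docetaxel and 4.92, 5.24 and 4.68 CPM in control. All docetaxel values were above the control values, and docetaxel replicate 3 was the highest. COL17A1 rose 1.47-fold, with a log2 fold change of 0.55 ± 0.15 (SE) and a 95% interval of 0.26 to 0.85. Without docetaxel replicate 3 the log2 fold change was 0.44 and the call did not hold (edgeR adjusted p = 0.086).

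PLEC (ENSG00000178209, chromosome 8, 143915147 to 143976734, minus strand) had 925, 841 and 897 CPM with docetaxel and 783, 754 and 791 CPM in control. The groups did not overlap. PLEC rose 1.14-fold, with a log2 fold change of 0.19 ± 0.04 (SE), and passed whichever library was left out, but not with GC and length offsets (0.02, edgeR adjusted p = 0.87). DST, the plakin gene whose epithelial isoform is the bullous pemphigoid antigen (ENSG00000151914, chromosome 6, 56457987 to 56954628, minus strand), had 38.9, 44.2 and 45.4 CPM with docetaxel and 46.0, 48.7 and 43.8 CPM in control. Its groups overlapped, and the log2 fold change of -0.11, with a 95% interval of -0.25 to 0.03, did not pass. Gene counts do not separate the isoforms of either plakin.

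The integrin genes did not pass. ITGA6, the laminin-binding α subunit (ENSG00000091409, chromosome 2, 172427354 to 172506282, plus strand), had 32.3, 29.4 and 28.0 CPM with docetaxel and 32.8, 32.0 and 31.0 CPM in control. Docetaxel replicate 1 lay inside the control range, and the log2 fold change was -0.09 with a 95% interval of -0.24 to 0.06. ITGB4 (chromosome 17, 75721328 to 75757818, plus strand) had 0.936, 1.76 and 2.36 CPM with docetaxel and 2.05, 1.62 and 1.58 CPM in control. Its docetaxel values spanned the control range on both sides. The log2 fold change of -0.05 had a 95% interval of -0.66 to 0.55, which runs from 0.635-fold to 1.46-fold, so a change anywhere within it remains possible. Its sign turned when control 1 (0.075) or docetaxel 1 (0.22) was left out.

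**Figure D2:**
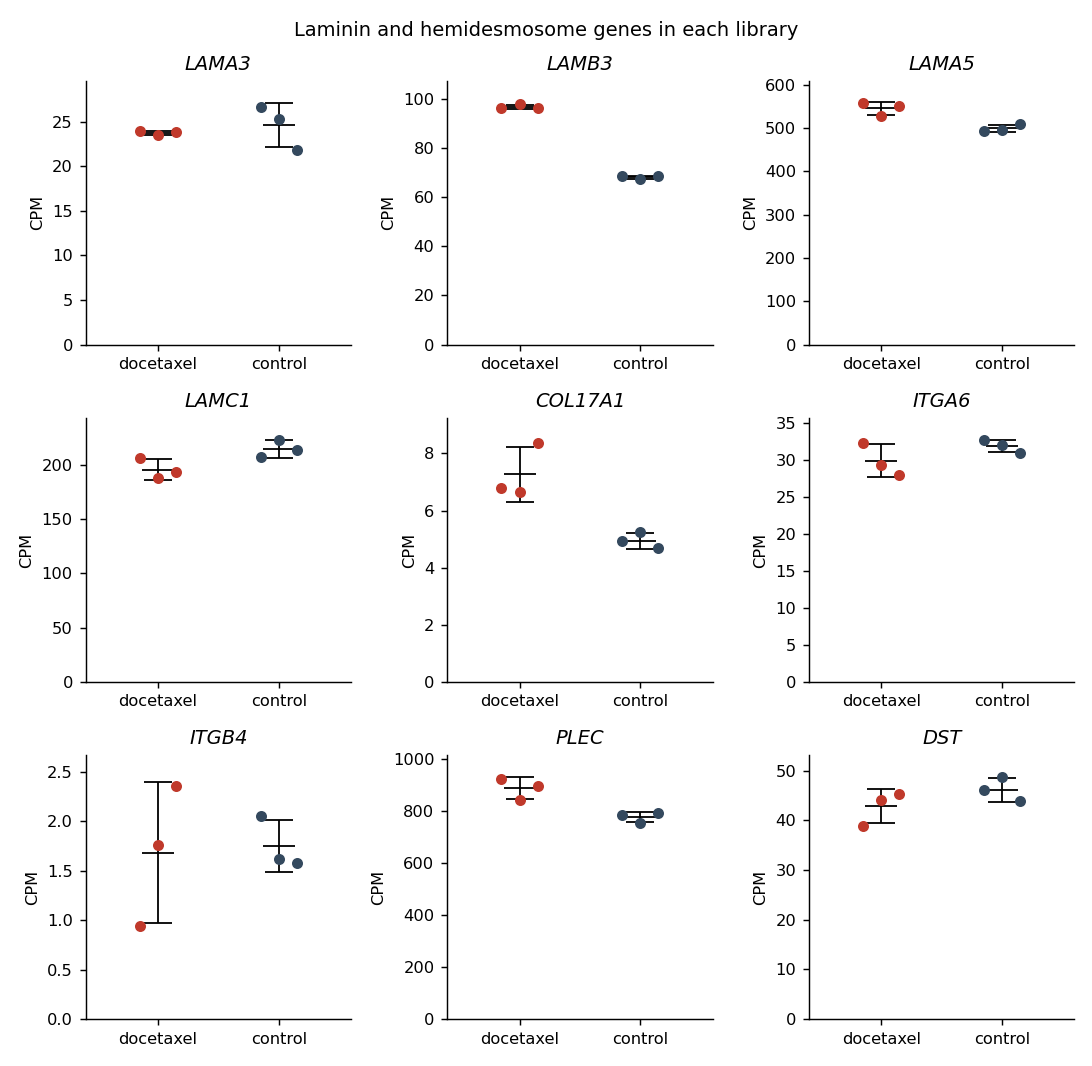
CPM of each of the 9 genes by library, 1 panel per gene with its own axis from 0, docetaxel on the left and control on the right; points are libraries and bars the mean ± SD. LAMB3 separates the groups by far more than their spread, 96.1 to 97.8 against 67.5 to 68.4 CPM, whereas LAMA3, ITGA6, ITGB4 and DST overlap.

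GC content of the transcript and direction of change moved together over the 91.0% of tested genes with a GC value, here cut by GC content into 5 bins of equal size. In the poorest bin the middle gene changed by -0.19 on the log2 scale, and 28.8% of its genes were called lower and 0.183% higher. In the richest bin that median was 0.18, and 0.122% of its genes were called lower and 31.6% higher. The part of this trend in the members' changes was not tested beyond the offsets given next. The members lay along the same range, with DST at 41.2% GC, ITGA6 at 42.9%, LAMC1 at 48.6%, LAMA3 at 50.7%, COL17A1 at 55.9%, LAMB3 at 58.9%, ITGB4 at 63.7%, LAMA5 at 66.4% and PLEC at 67.0%. LAMA5, at 0.13, and PLEC, at 0.19, were close to the median of the richest bin, to which both belong. LAMB3 of the same bin was at 0.51, and COL17A1 was at 0.55, in the next bin, whose median was 0.10.

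Offsets for GC content and gene length were then added to the fit, from a trend estimated per library. That trend was fitted to deviations from the mean of the 6 libraries, so its direction is relative to the other libraries. Fitted as a straight line on GC content, it rose in every docetaxel library and fell in every control library. The offsets therefore also take away any change with docetaxel that follows GC content, and the origin of the trend was not tested. LAMB3 rose 1.29-fold with these offsets, a log2 fold change of 0.36 ± 0.045 (SE), and it was the 1 member called, beside 4.28% of all tested genes, 2.58% higher and 1.70% lower. Tested genes without a GC value got no offset and are included in these shares, while all 9 members had a GC value. COL17A1 was at a log2 fold change of 0.45, with a 95% interval of 0.16 to 0.75, but missed the threshold (edgeR adjusted p = 0.065), as did LAMC1 at -0.12 (adjusted p = 0.065). At an unadjusted p under 0.05 these fits gave 2 members higher and 1 lower. PLEC was not called, as given above, and LAMA5 turned to -0.05 (adjusted p = 0.54), while ITGA6 turned to 0.01 and DST to 0.10.

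**Figure D3:**
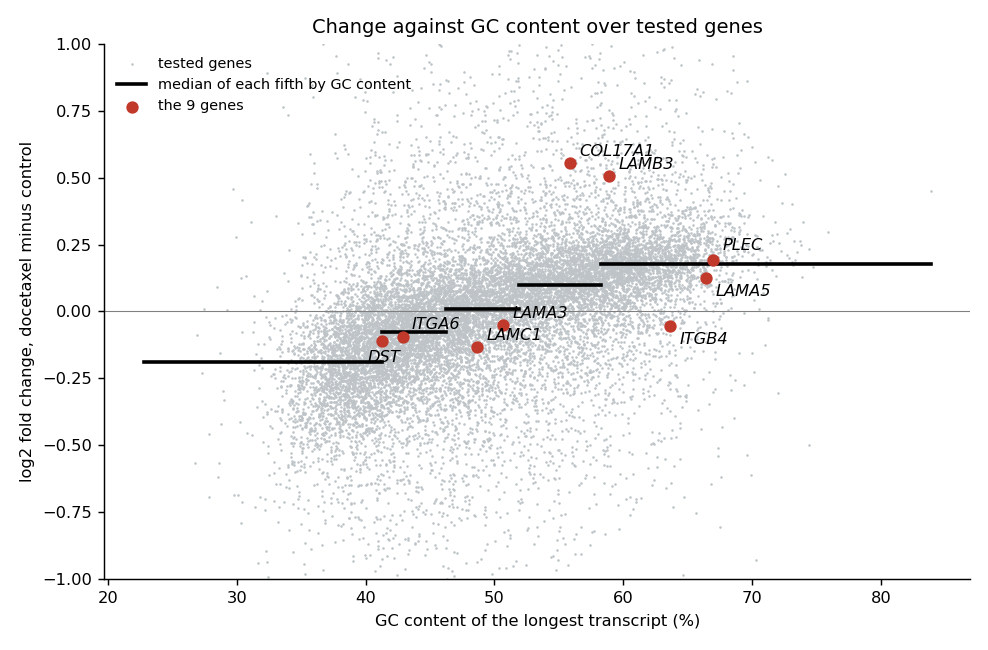
Log2 fold change (docetaxel minus control) against GC content of the longest transcript for the tested genes with a GC value, grey, within 1 log2 unit of 0, with the median of each GC bin as a black line and the 9 genes in red. PLEC and LAMA5 lie near the line of the richest bin, at 0.18, and LAMB3 and COL17A1 above the lines of their bins.

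**Figure D4:**
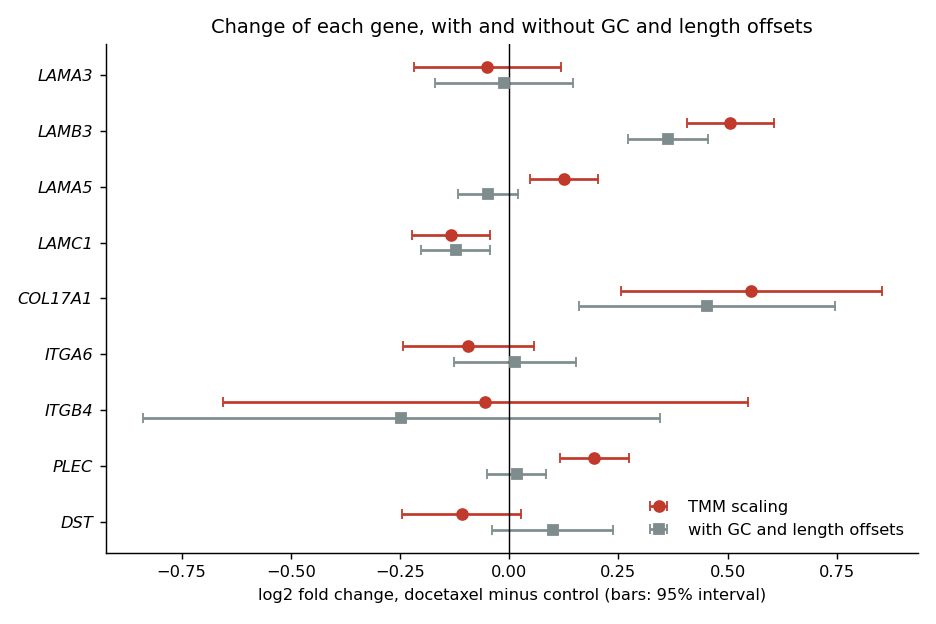
Log2 fold change (docetaxel minus control) of the 9 genes with 95% intervals, red with TMM scaling and grey with GC and length offsets. LAMB3 stays above 0 in both, at 0.51 and 0.36, and PLEC and LAMA5 move to near 0.

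The lists of related genes that follow were also chosen with earlier results of these data known. Beside their counts stand the shares over all tested genes, 9.14% called higher and 7.82% lower, and nothing is read from the counts per list. Among 7 other laminin chains, 5 had enough reads to test and 2 rose. LAMA1, an α chain best known from early embryonic basement membranes (ENSG00000101680, chromosome 18, 6941744 to 7117814, minus strand), had 740, 766 and 797 CPM with docetaxel and 663, 665 and 649 CPM in control. The groups did not overlap, and LAMA1 rose 1.16-fold, 0.22 ± 0.04 on the log2 scale (SE; adjusted p = 1.48e-04 by edgeR), and 0.26 with GC and length offsets (adjusted p = 3.71e-06). It was the most abundant laminin α chain, at 133.1 ± 4.8 TPM with docetaxel and 117.6 ± 3.4 TPM in control, and LAMA3 made up 1.86% ± 0.04 of the summed level of LAMA1, LAMA3 and LAMA5 with docetaxel and 2.17% ± 0.22 in control. In GENCODE 11.1% of the exon bases of LAMA1 overlap other genes, so its counts carry that uncertainty. LAMC3 rose 1.16-fold but was at 0.02 with offsets (adjusted p = 0.92). LAMB1, LAMB2 and LAMA2 did not pass, with log2 fold changes of -0.12, 0.11 and -1.08.

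Of 8 other laminin receptor genes all were tested, 4 rose and 1 fell. ITGA3, an α subunit that binds laminin-332 with ITGB1, rose 1.18-fold (edgeR adjusted p = 3.08e-04), and SDC1, a syndecan, rose 1.13-fold, but with offsets they were at 0.08 and 0.02 and not called. CD151, the tetraspanin partner of these integrins, rose 1.12-fold, but lost its call when control 2 (edgeR adjusted p = 0.085) or docetaxel 2 (0.22) was left out, and turned to -0.02 with offsets. RPSA, a ribosomal protein also described as a laminin receptor, had a log2 fold change of 0.15, called, and was called with offsets too, though it has many pseudogenes that could share its reads. ITGB1 had 241, 192 and 202 CPM with docetaxel and 251, 276 and 261 CPM in control, and fell by 0.31 on the log2 scale. It lost its call when control 2 (edgeR adjusted p = 0.26), control 3 (0.068) or docetaxel 3 (0.070) was left out, with offsets (0.12) and with RLE or library-size scaling (0.062 and 0.088). BCAM, the Lutheran receptor for LAMA5, had a log2 fold change of -0.02, not called, and was called lower with offsets, at -0.22 (edgeR adjusted p = 0.0020).

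Of 12 other basement membrane genes 11 were tested, 3 rose and 1 fell. COL4A2, a chain of the type IV collagen network, rose 1.16-fold, COL7A1, which builds the anchoring fibrils below laminin-332 in skin, 1.18-fold, and AGRN, a heparan sulfate proteoglycan, rose by 0.16 on the log2 scale. With offsets they were at 0.10, 0.05 and -0.06 and missed the threshold (edgeR adjusted p of 0.18, 0.74 and 0.45). COL7A1 lost its call when control 2 (edgeR adjusted p = 0.094) or docetaxel 3 (0.051) was left out, and AGRN when control 2 (0.054) or docetaxel 1 (0.14) was left out. COL4A5, another type IV collagen chain, fell by 0.44 on the log2 scale, to 31.8 ± 2.3 CPM with docetaxel against 43.0 ± 3.7 CPM in control (SD, n = 3 each, edgeR adjusted p = 1.04e-04), and was called lower in all 15 alternative fits.

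Of 11 other plakin and desmosome genes 10 were tested, 2 rose and 3 fell. The desmosome is the junction between cells that, like the hemidesmosome, holds keratin filaments. DSC2 and DSG2, desmosomal cadherins, fell by 0.52 and 0.38 on the log2 scale, DSC2 to 15.3 ± 3.0 CPM with docetaxel against 22.0 ± 0.9 CPM in control (SD, n = 3 each). Both were also called lower with offsets, at -0.31 and -0.21 (edgeR adjusted p of 0.038 and 0.035), and DSG2 lost its call when control 2 (0.089) or docetaxel 3 (0.069) was left out. PKP2, a plakophilin, fell by 0.27 and lost its call with offsets (edgeR adjusted p = 0.12) and when any of control 2, control 3, docetaxel 2 and docetaxel 3 was left out (between 0.051 and 0.21). JUP, plakoglobin, and PKP3 rose 1.15-fold and 1.22-fold and were at 0.03 and 0.06 with offsets, not called. The plakins DSP, PPL, EVPL, EPPK1 and MACF1 did not pass, with log2 fold changes between -0.05 and 0.15, and PKP1 had 0 reads in every library.

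Of 6 keratins 4 were tested and 3 rose. KRT17, a keratin of activated and basal epithelium, rose by 0.58 on the log2 scale, to 7.22 ± 0.33 CPM with docetaxel against 4.82 ± 0.66 CPM in control (SD, n = 3 each), and missed the threshold with offsets (edgeR adjusted p = 0.075). KRT8 rose 1.17-fold and was called with offsets, and KRT18 rose by 0.15 on the log2 scale but lost its call with offsets and when control 1 (edgeR adjusted p = 0.063) or docetaxel 3 (0.077) was left out. Of 8 proteases known to process laminin-332 chains or shed COL17A1, 6 were tested and 3 fell. They were the sheddases ADAM9, ADAM10 and ADAM17, with log2 fold changes of -0.27, -0.23 and -0.30. Offsets put them at -0.05, 0.006 and -0.07, none past the threshold (edgeR adjusted p of 0.71, 0.98 and 0.83). ADAM9 lost its call when control 2 (edgeR adjusted p = 0.0996) or docetaxel 3 (0.078) was left out, ADAM10 when control 3 was (0.058), and ADAM17 whichever of the 6 libraries was (0.052 to 0.14).

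**Figure D5:**
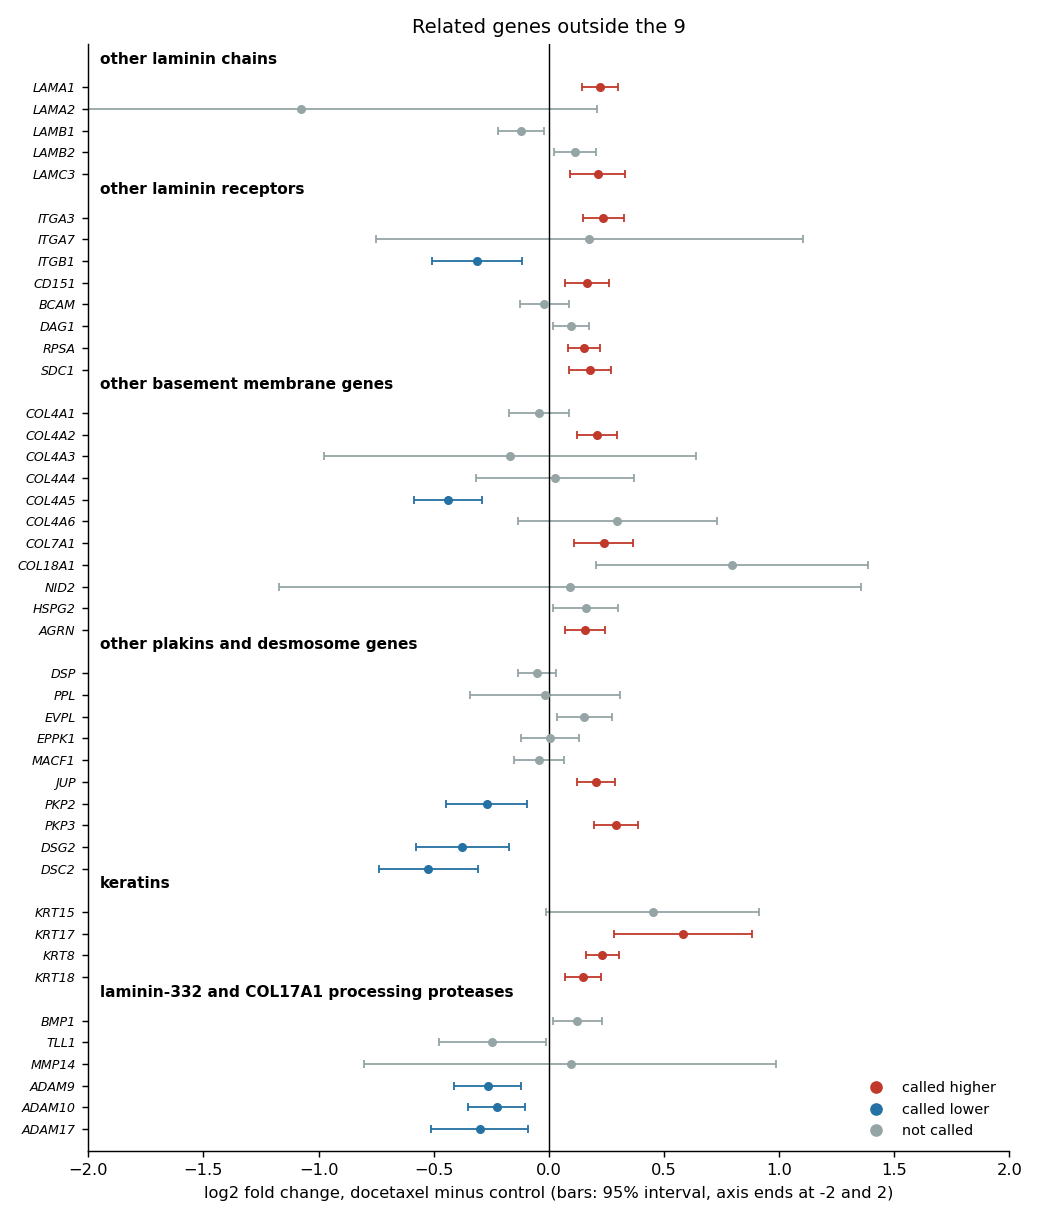
Log2 fold change (docetaxel minus control) with 95% interval of the 44 tested genes in the related lists, red where called higher, blue where called lower and grey where not called. LAMA1, COL4A5, DSG2, DSC2, KRT8 and RPSA were also called with GC and length offsets.

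The genes whose values over the 6 libraries were most like those of LAMB3 were sought among tested genes with at least 5 CPM on average. By Pearson's r of log2 CPM over the 6 libraries, the 5 closest were JUNB (0.999), FOS (0.998), KCNAB2 (0.997), FOLR1 (0.996) and DNAJC14 (0.995). JUNB and FOS encode AP-1 transcription factors, KCNAB2 a potassium channel subunit, FOLR1 a folate receptor and DNAJC14 a co-chaperone. JUNB had 178, 180 and 172 CPM with docetaxel and 106, 103 and 108 CPM in control. FOS had 68.3, 67.8 and 72.3 CPM with docetaxel and 16.5, 17.0 and 16.5 CPM in control. The likeness mostly restates the gap between the groups, which these genes share with LAMB3, and 401 genes had an r of 0.95 or more.

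Promoter sequences are shown for LAMB3, LAMA5 and COL17A1 because these members were called higher and had a window. RefSeq promoter windows on GRCh38.p14 were found for 7 of the 9 genes, without PLEC and ITGB4. In the 250 bases before each annotated start, motifs were searched on both strands, namely TGANTCA for AP-1, which is its own reverse complement, GGGCGG for the GC box and TATAAA for the TATA box. Capitals mark the matches to these motifs. CCAAT and GGAATG, a TEAD motif, were also searched on both strands and are not marked. Bases inside GENCODE exons of the same gene are left out of the print. Some printed runs therefore end before the start from which distances are counted. All are on the minus strand and read 5′ to 3′ toward the start. Of the 3 starts of LAMB3 the first, at chr1:209652467-209652675, and the most downstream, at chr1:209651395-209651624, are printed, with LAMA5 at chr20:62367313-62367562 and COL17A1 at chr10:104085958-104086130.
LAMB3, first start: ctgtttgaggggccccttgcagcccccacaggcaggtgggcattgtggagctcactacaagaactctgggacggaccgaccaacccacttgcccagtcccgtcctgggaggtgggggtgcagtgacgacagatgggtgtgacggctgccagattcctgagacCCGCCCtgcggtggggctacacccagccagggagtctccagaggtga
LAMB3, downstream start: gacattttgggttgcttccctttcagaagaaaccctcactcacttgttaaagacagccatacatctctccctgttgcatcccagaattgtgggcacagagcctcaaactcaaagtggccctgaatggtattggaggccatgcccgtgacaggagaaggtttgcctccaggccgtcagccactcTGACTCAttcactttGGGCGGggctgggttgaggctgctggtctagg
LAMA5: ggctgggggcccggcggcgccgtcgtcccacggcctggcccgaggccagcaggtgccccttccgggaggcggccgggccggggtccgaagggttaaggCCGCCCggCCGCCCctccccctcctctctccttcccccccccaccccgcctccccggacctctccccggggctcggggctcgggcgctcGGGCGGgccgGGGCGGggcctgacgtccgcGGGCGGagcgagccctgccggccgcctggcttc
COL17A1: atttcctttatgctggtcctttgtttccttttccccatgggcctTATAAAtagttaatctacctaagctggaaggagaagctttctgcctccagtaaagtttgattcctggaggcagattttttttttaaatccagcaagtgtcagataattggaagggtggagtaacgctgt

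The AP-1 letters, TGACTCA, were found 67 bases before the downstream start of LAMB3 and were not in the windows of its other starts, of LAMA5 or of COL17A1. LAMA3, which did not pass, held 2 matches, TGACTCA 125 bases and TGAGTCA 69 bases before an annotated start inside the gene. That window, chr18:23872770-23873019, was the only one for LAMA3, and the bases before the gene's outermost start were not searched. AP-1 letters were found in 6.57% of all 35116 promoter windows. LAMA5 had 5 GC boxes and each LAMB3 window 1, and 42.6% of all windows held at least 1. COL17A1 had no GC box and held TATAAA 206 bases before its start, a motif found in 10.7% of windows. Of the motifs not marked, CCAAT was found in the downstream LAMB3 window and in that of COL17A1, beside 32.0% of all windows. GGAATG was in no window of LAMB3, LAMA5 or COL17A1, beside 11.9% of all windows. A match is only a run of letters, and gene counts do not show which start was used.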

How the data were processed

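Poly(A)-enriched RNA of HCC1937 cells was sequenced as paired-end reads of 150 bases, per the labels' protocols. One table of raw counts of reads per gene was deposited, with a length in bases for each gene; featureCounts 2.0.1 and build GRCh38 are named in the submitters' processing notes. The sources used here do not name the aligner, annotation, strand setting or handling of multi-mapping reads, so counts of paralogs and overlapping genes are uncertain.

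Groups came from sample titles. Symbols matched 42179 of 78932 rows. Genes passing filterByExpr (18040) were scaled by TMM and compared, docetaxel minus control, with edgeR 4.0.16 in R 4.3.3 (glmQLFit, robust, and glmQLFTest, two-sided), with Benjamini-Hochberg adjustment over all of them and a threshold of 0.05. CPM and TPM were computed here from the deposited counts. Each standard error was derived from the fold change and the F statistic. The main edgeR fit was tested on simulated counts that held no GC trend. The offsets and the other fits were not tested in this way. Offsets were loess trends (span 0.5), per library, on log2 length and on GC content of the longest GENCODE 29 transcript. Results were recomputed with other scaling (RLE, upper quartile, library size), other tools (DESeq2 1.42.0, limma-voom 3.58.1), other filters (none, or 1 CPM in 3 libraries), a replicate block, the offsets, and each library left out.

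The members and lists were chosen with earlier results of these data known. Named were all members, genes of the lists, with values for those called, and the 5 genes most like LAMB3; 1 further item is not reported here. Pairs of libraries within a group differed by more than sampling noise (Poisson dispersion index 4.92 to 12.7).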

Additional observations from a re-analysis of the deposited data

How the results depend on the processing

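LAMB3, LAMA1, COL4A5, DSC2, KRT8 and RPSA kept their direction and call in all 15 alternative fits. With GC and length offsets 466 of the 18040 tested genes were called higher (2.58%) and 307 lower (1.70%), against 1649 and 1410 without. With them 1 member was called higher and 0 lower by edgeR (2 and 1 at an unadjusted p under 0.05). Of the 44 tested related genes 3 were higher and 4 lower, against 14 and 8 without offsets. Offsets turned the sign of LAMA5 (-0.049), ITGA6 (0.013), DST (0.099), CD151 (-0.021), AGRN (-0.063) and ADAM10 (0.006). Library-size scaling gave 1096 genes higher and shifted the median log2 fold change of all genes by -0.039, and CD151, AGRN and ITGB1 lost their calls under it. The 1 member called lower, LAMC1, was not called with upper-quartile scaling, no filter or the replicate block, 0 in each, with 1 at an unadjusted p under 0.05 in each and 1 called by DESeq2 and by limma-voom. LAMA5 was not called with library-size scaling, no filter or the block (edgeR adjusted p of 0.099, 0.059 and 0.058). The replicate block gave 1283 genes higher and 1106 lower. Deviations of libraries that share a number correlated at 0.008, 0.007 and 0.016, each library correlating best with its own number but under 0.1. These values are close to 0, as was that of docetaxel 1 with control 2 (0.006), so nothing is read from them on pairing. No label says whether these libraries share more than a number. Leaving out 1 library gave 1003 to 1446 genes higher and 755 to 1849 lower, 2 to 4 members higher and 0 to 1 lower, and 11 to 15 related genes higher and 3 to 8 lower. The counts of genes were lowest without control replicate 2 (1003 higher, 755 lower) and docetaxel replicate 3 (1074 and 805, with 2 members higher). The log2 fold change then ran from -0.129 to 0.011 for LAMA3 and from -0.377 to 0.216 for ITGB4, turning sign without control replicate 1 for both (0.011 and 0.075) and without docetaxel replicate 1 for ITGB4. FPKM in place of TPM left all 9 members at the same rank in both groups, but the 2 scales use the same lengths and differ only by a factor per library. With the longest transcript as length, 7 of the 9 kept their rank with docetaxel and 9 in control. ITGB4 rests on few reads that also spread widely, 36 to 91 per library with docetaxel and 65 to 81 in control. The cause of each change was not tested.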
